A study of Vitis vinifera with 36 samples.

Results

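Described here are 9 genes that the study placed in abscisic acid (ABA) signalling in ripening grape berries, out of 25280 genes in the deposited expression table. A KEGG ortholog of the core pathway was annotated for 7 of them. The 9 are genes that the study named by identifier and that are listed for this description. They are a PYR/PYL receptor gene, 4 genes of the type 2C protein phosphatases (PP2Cs), 3 genes of the SnRK2 kinases and 1 gene of the ABF transcription factors. The study picked them because of their expression in these same berries, so that counts of changed genes among them are a description and are not independent evidence that the pathway responded. All 9 passed the filter on low values, which kept 17598 genes with at least 1 FPKM in at least 3 libraries.

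Clusters of field-grown Vitis vinifera cv. Cabernet Sauvignon were sprayed in 2015 at E-L 33, when berries were hard and green, with 1000 mg/L ABA (ABA1000), with 100 mg/L of the synthetic auxin NAA (NAA100), or with a solution of the wetting agent Tween 20 alone (Control), which both hormone solutions also held. Berries were collected at E-L 34, 35, 36 and 38, stages of the modified E-L scale that run through softening, coloring and maturity, and RNA of the deseeded berry (the whole pericarp, which pools skin and flesh) was sequenced. Each of the 12 groups had 3 libraries, a library standing for a subsample of berries from 1 field plot, which gave 36 libraries in all. Berries were matched by stage and not by date, so that the treatment and the time since spraying cannot be told apart.

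ABA is perceived by soluble receptors of the PYR/PYL family. In Arabidopsis, a receptor that has bound ABA holds back PP2Cs, which otherwise keep SnRK2 kinases inactive by dephosphorylating them. The freed kinases phosphorylate ABFs, transcription factors of the bZIP class that bind ABA-responsive elements in promoters, and among the genes turned on in this way are the PP2C genes themselves. In grape berries, the pathway is known for its part in the onset of ripening, when sugar and anthocyanins begin to accumulate and ABA and auxin act in opposite directions.

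By its annotation, VIT_202s0012g01270 encodes a PYR1-type receptor and lies on chromosome 2 from 7370362 to 7372070. The table gave no version of the assembly, and positions are those of the table. Of the PP2C genes, VIT_216s0050g02680 (chromosome 16, 19697155 to 19699942) and VIT_206s0004g05460 (chromosome 6, 6318201 to 6321434) carried the KEGG ortholog of the phosphatases of this pathway. The other 2 PP2C genes, VIT_206s0004g06840 (chromosome 6, 7566938 to 7569983) and VIT_213s0067g01270 (chromosome 13, 727696 to 730568), carried a PP2C domain but not that ortholog. The kinase genes were VIT_202s0236g00130 (chromosome 2, 5557323 to 5562814), annotated as SAPK3-like, VIT_207s0031g03210 (chromosome 7, 20084592 to 20090975), annotated as SAPK7 or SRK2A-like, and VIT_207s0197g00080 (chromosome 7, 14600573 to 14607447), annotated as SRK2I-like, SRK2I being one of the Arabidopsis kinases that ABA activates. VIT_204s0069g01150 (chromosome 4, 9841491 to 9842587), annotated as similar to ABI5, was the ABF gene. No other gene of the table overlapped any of the 9.

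Values are FPKM, fragment counts divided by transcript length and by the number of mapped fragments, so that levels can be compared between genes. The steps between low FPKM values showed that all 36 libraries were of similar depth, with the deepest holding 1.12 times the reads of the shallowest, and that the values of the 9 genes rested on 41 to 14063 reads per library. As markers of ripening skin, VviMYBA1 and VviMYBA2, regulators of anthocyanin synthesis, were expressed, with VviMYBA2 at 32.8 ± 1.64 FPKM in ABA-treated, 0.645 ± 0.504 in NAA-treated and 13.3 ± 3.71 in control berries at E-L 34 (SD, n = 3). The order was different at E-L 36, where VviMYBA2 was at 43.3 ± 9.48 FPKM with ABA, 83.8 ± 8.32 FPKM with NAA and 33.6 ± 7.85 FPKM in the control, and at E-L 38, where it was at 40.5 ± 3.64, 72.3 ± 8.22 and 34.3 ± 4.31 FPKM in the same order of groups. Compared with the control, NAA-treated berries thus had less of this marker at E-L 34 but more of it at E-L 36. The median log2 fold change of the 9 genes with NAA against the control was −0.33 at E-L 34 and −0.41 at E-L 36. Single genes went in both directions, and VIT_202s0236g00130 and VIT_207s0197g00080 changed direction between these stages. Since the genes differ in their own stage courses, this median does not show whether they followed the marker. The part of the marker in the NAA differences described below was not tested. The gene listed for UFGT (VIT_216s0039g02230), the enzyme of the last step of anthocyanin synthesis, was at or near 0 in every group. Transcripts annotated as seed storage and oil body proteins (21 genes, 19 of them with at least 1 FPKM in at least 3 libraries, none at 0 throughout) were present although seeds had been removed, with a summed level of 235 to 2086 FPKM. The listed genes differed. VIT_211s0052g01710 (mean 116, highest 162 FPKM) and VIT_206s0004g04060 (mean 83.5, highest 117 FPKM) had no strong peak, unlike VIT_207s0151g00640 (mean 88.1, highest 701 FPKM, in ABA replicate 2 at E-L 35). A low sum is thus no sign of seed RNA. This sum was over 500 FPKM in 7 libraries, which were ABA replicate 3 at E-L 34 (1240 FPKM), ABA replicate 2 at E-L 35 (2086 FPKM), NAA replicates 2 and 3 at E-L 35 (796 and 1618 FPKM), NAA replicate 2 at E-L 38 (515 FPKM), control replicate 3 at E-L 35 (530 FPKM) and control replicate 2 at E-L 36 (734 FPKM). NAA replicate 3 at E-L 35 also stood apart in the genes described here and in VviMYBA2, which was at 25.0 FPKM in this library and at 3.67 and 3.08 FPKM in replicates 1 and 2. Where leaving out the 7 libraries or NAA replicate 3 at E-L 35 ended or made a call of a treatment effect against the control, the value without them is given below.

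Differences between groups were tested with limma on log2(FPKM + 1) in 1 fit of all 36 libraries, and a difference was called where the Benjamini-Hochberg adjusted p did not exceed 0.01 and the change reached 1 on the log2 scale, the limit in size. Since a pseudocount of 1 was added, fold changes of genes near 1 FPKM are understated. Both treatments were set against the same control libraries at each stage, so that the ABA and NAA comparisons are not independent of each other. The plot of FPKM by stage shows every library.

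**Figure D1:**
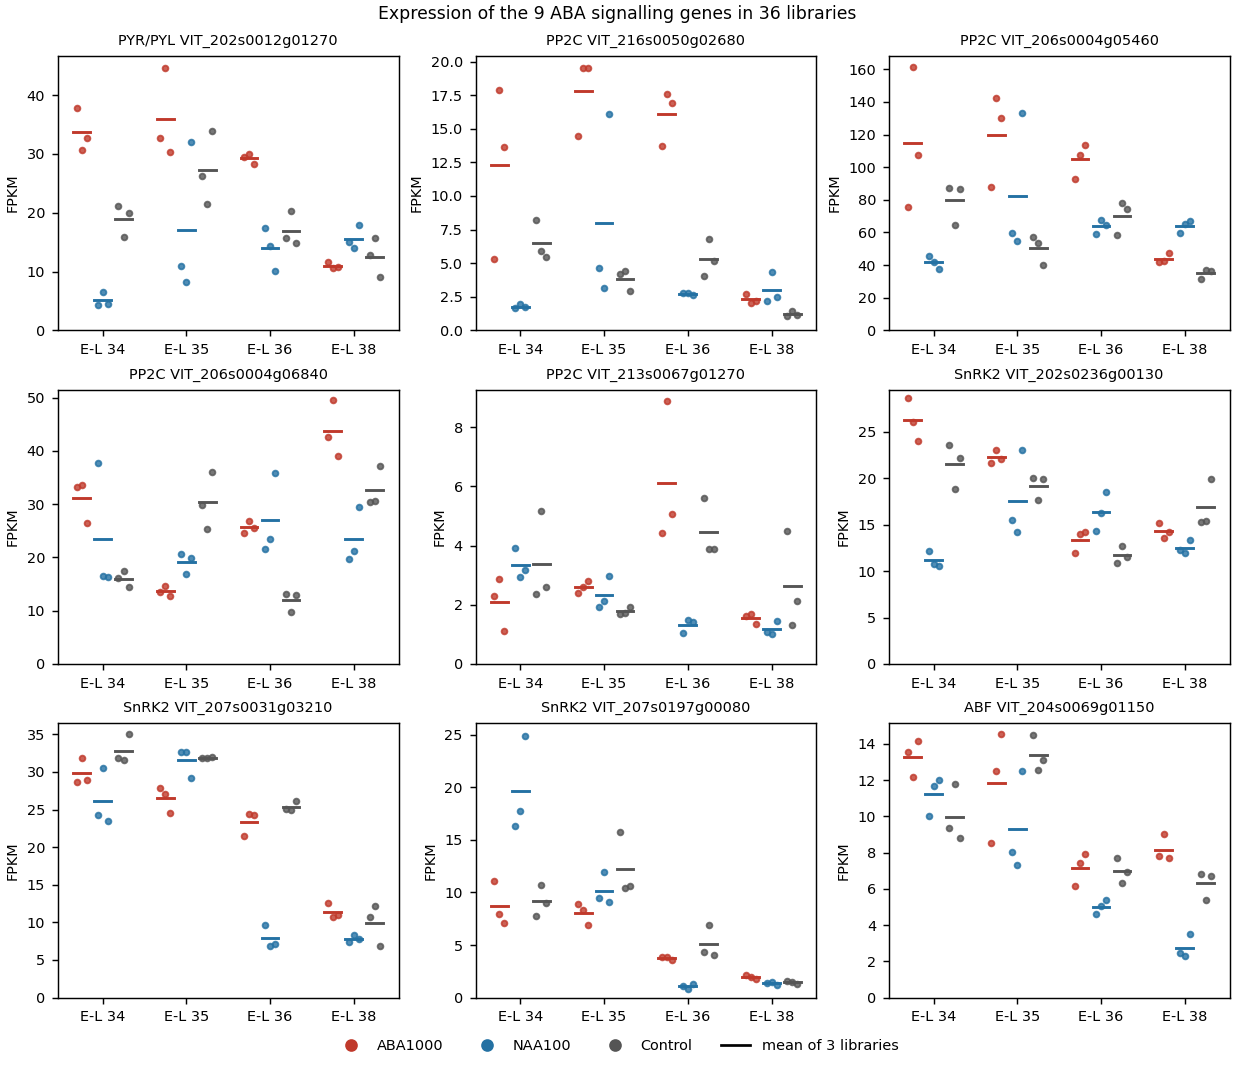
Expression (FPKM, y axis from 0) of the 9 genes at the 4 stages (x axis) in ABA1000, NAA100 and Control berries, with a point for each library and a line for the mean of 3 libraries. Of the 3 NAA libraries at E-L 35, 1 lies far above the others for the receptor gene and for the PP2C genes VIT_216s0050g02680 and VIT_206s0004g05460, and the NAA libraries of both SnRK2 genes of chromosome 7 are already low at E-L 36.

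With ABA, calls among the 9 genes were made in PP2C genes alone. Of 36 combinations of gene and stage, 5 were called between ABA-treated and control berries (13.9%, against 0.864% of all combinations of tested gene and stage). These were 4 rises and 1 fall, all in 3 of the 4 PP2C genes and all at E-L 35 or 36, while none of the receptor, SnRK2 or ABF genes was called. Over all tested genes there were 291 rises and 317 falls. At an unadjusted p under 0.05 there were 13 combinations. The share of all tested genes at that limit is not given here, so such counts, here and below, have no background to be set against. The fall and 1 of the rises were in VIT_206s0004g06840, which lacks the KEGG ortholog of the pathway. For the 7 genes with that ortholog, 3 of 28 combinations were called (10.7%). By stage, 0.688% of all tested genes were called at E-L 34, 1.45% at E-L 35, 0.665% at E-L 36 and 0.648% at E-L 38. When the 7 libraries with much seed RNA were left out, a setting chosen after seeing the data, 2 combinations were called, both for VIT_216s0050g02680. The share over all tested genes in that fit is not given here.

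NAA moved more of the 9 genes and mostly downward. It gave 7 calls among 36 combinations (19.4%, against 7.38% over all tested genes), of which 2 were rises and 5 were falls in 6 genes. Over all tested genes there were 2283 rises and 2912 falls. An unadjusted p under 0.05 was found in 24 combinations, with no share over all tested genes to set beside it. All calls were at E-L 34 (3) and E-L 36 (4), where 3.79% and 19.9% of all tested genes were called. At E-L 35 and E-L 38, where 2.44% and 3.42% of all tested genes were called, none of the 9 genes was called, with 4 of 9 at an unadjusted p under 0.05 at E-L 35 and 7 of 9 at E-L 38. For the 7 genes with the KEGG ortholog of the pathway, 5 of 28 combinations of NAA against control were called (17.9%). The direct comparison of NAA-treated with ABA-treated berries, which does not use the control libraries, gave 13 calls among 36 combinations (36.1%, against 9.47% over all tested genes), 12 of them lower with NAA. Over all tested genes, 3555 calls were higher and 3108 lower with NAA. Of the 13 calls, 5 were at E-L 34, 2 at E-L 35, 5 at E-L 36 and 1 at E-L 38, where 8.75%, 2.15%, 24.7% and 2.25% of all tested genes were called.

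The libraries of the 2 groups did not overlap for 4, 7, 6 and 6 of the 9 genes at E-L 34, 35, 36 and 38 between ABA-treated and control berries, which held for 27%, 35.5%, 37.6% and 32.3% of all tested genes. Between NAA-treated and control berries the counts were 6, 2, 7 and 5 of 9, against 43%, 30.7%, 74.4% and 39.3% of all tested genes. Between NAA-treated and ABA-treated berries they were 7, 3, 8 and 7 of 9, against 54%, 28%, 77.5% and 47.4%. How the values were scaled moved the balance of rises and falls. With median-of-ratios scaling, the calls were 5 rises and 0 falls with ABA, 0 rises and 6 falls with NAA, and 0 rises and 12 falls for NAA against ABA. Over all tested genes, rises and falls with that scaling were 357 and 269, 1898 and 3177, and 2555 and 3757. With quantile normalization the calls were 4 rises and 1 fall, 1 rise and 6 falls, and 0 rises and 12 falls in the same order of comparisons. Over all tested genes they were 295 and 261, 2199 and 2870, and 2966 and 3277.

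The median log2 fold change of the 9 genes was 0.39 at E-L 34, 0.21 at E-L 35, 0.35 at E-L 36 and 0.25 at E-L 38 in ABA-treated berries, where the median over all tested genes was −0.08, −0.08, −0.06 and 0.03. In NAA-treated berries it was −0.33, −0.15, −0.41 and −0.27, where the median over all tested genes was 0.07, 0.02, 0.09 and −0.05.

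**Figure D2:**
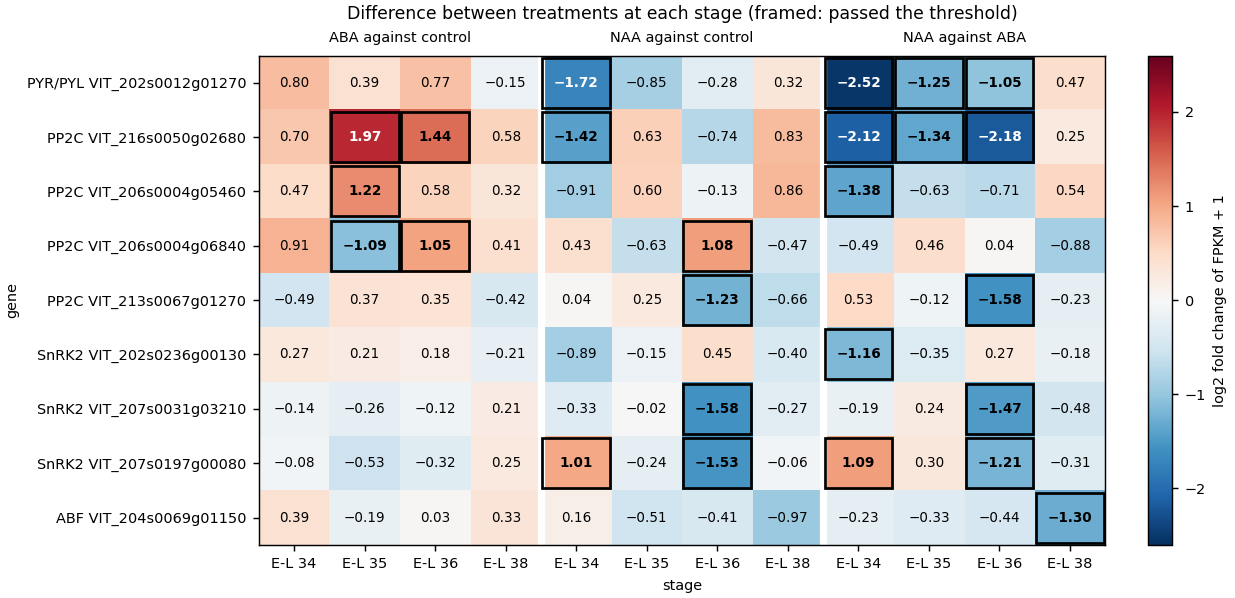
Log2 fold change of FPKM + 1 (color and printed value) for the 9 genes (y axis) at each stage (x axis), in ABA-treated against control, NAA-treated against control and NAA-treated against ABA-treated berries. Frames mark the 5, 7 and 13 combinations that passed the threshold, and the frames of the ABA comparison lie in the PP2C rows alone.

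The receptor gene VIT_202s0012g01270 had the largest fall with NAA at E-L 34 among the 9 genes. Its level there was 37.7, 30.7 and 32.7 FPKM in the ABA libraries, 4.36, 6.46 and 4.51 FPKM in the NAA libraries and 21.2, 15.9 and 19.9 FPKM in the control libraries. The 3 treatments did not overlap at this stage, with all NAA libraries lowest and all ABA libraries highest, an order that in NAA against control berries held for 16.4% of all tested genes. The fall with NAA was called (log2 fold change −1.72, SE 0.29, limma adjusted p = 4.78e-05), and it kept its call with each library left out in turn. With ABA, the log2 fold change of 0.80 did not pass (limma adjusted p = 0.0676), although all ABA libraries were above all control libraries, as were 6.31% of all tested genes. Between NAA-treated and ABA-treated berries, the difference was −2.52 (SE 0.29, limma adjusted p = 7.8e-08), the largest in size among the 36 combinations of that comparison.

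At E-L 35, the receptor gene was at 32.6, 44.6 and 30.4 FPKM with ABA, at 10.99, 8.14 and 32.0 FPKM with NAA and at 26.2, 21.5 and 33.9 FPKM in the control. Replicate 3 of NAA thus lay within the ranges of both ABA-treated and control berries, above the other NAA libraries. The log2 fold change of NAA against control was −0.85 with this library (limma adjusted p = 0.029) and −1.41 without it (limma adjusted p = 3.39e-05), which is a call, as was −1.05 without the 7 libraries with much seed RNA (limma adjusted p = 0.00951). Against ABA the difference at this stage was −1.25 and called with overlapping libraries (limma adjusted p = 0.00369), and it was not called without ABA replicate 1 or 2 or NAA replicate 1 or 2 (limma adjusted p = 0.0112, 0.0287, 0.0382 and 0.0606) or in a fit of the 6 libraries alone (limma adjusted p = 0.187). At E-L 36, ABA-treated berries had 29.5, 30.04 and 28.2 FPKM, NAA-treated berries 17.4, 14.4 and 10.05 FPKM and control berries 15.7, 20.2 and 14.8 FPKM. Only the comparison of NAA with ABA was called there (log2 fold change −1.05, limma adjusted p = 0.00184), and it was lost without NAA replicate 3 (−0.84, limma adjusted p = 0.0193) and with TPM (−0.94). By E-L 38 the levels had come together, at 10.98 ± 0.561 FPKM with ABA, 15.6 ± 2.03 FPKM with NAA and 12.6 ± 3.35 FPKM in the control (SD, n = 3 each).

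The PP2C gene VIT_216s0050g02680, one of the pair with the KEGG ortholog of the pathway, showed the largest response to ABA. Its level at E-L 35 was 14.4, 19.5 and 19.5 FPKM in ABA-treated berries, 4.66, 3.13 and 16.1 FPKM in NAA-treated berries and 4.17, 4.399 and 2.89 FPKM in control berries. All ABA libraries were above all control libraries, as they were for 11.5% of all tested genes at this stage. The rise with ABA was 1.97 on the log2 scale (SE 0.34, limma adjusted p = 4.0e-04), with a ratio of means of 4.66, and the call was kept under every alternative and with each library left out. The difference between NAA-treated and ABA-treated berries, −1.34 with overlapping libraries, was called (limma adjusted p = 0.0083) but not when any of ABA replicates 1, 2 and 3 or NAA replicates 1 and 2 was left out (limma adjusted p = 0.0148, 0.0359, 0.0295, 0.0635 and 0.105), nor with 0.1 as the pseudocount (0.0106), without the filter (0.0133) or in a fit of these 6 libraries (0.188).

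At E-L 36 the gene was at 13.7, 17.6 and 16.9 FPKM with ABA, at 2.78, 2.79 and 2.63 FPKM with NAA and at 4.07, 6.80 and 5.15 FPKM in the control. The 3 treatments were separate at this stage, with ABA highest and NAA lowest. The rise with ABA (log2 fold change 1.44, SE 0.34) had a limma adjusted p of 0.00668, which lay between 0.0152 and 0.0452 when ABA replicate 1, 2 or 3 or control replicate 1 or 3 was left out and was 0.0108 without the filter. With NAA the change against the control was −0.74 (limma adjusted p = 0.0574), and against ABA-treated berries it was −2.18 (SE 0.34, limma adjusted p = 2.21e-06).

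At E-L 34 NAA had lowered VIT_216s0050g02680, to 1.63, 1.95 and 1.74 FPKM, against 8.18, 5.90 and 5.44 FPKM in the control. This was a log2 fold change of −1.42 (SE 0.34, limma adjusted p = 0.00245), and leaving out control replicate 1 or NAA replicate 3 ended the call (limma adjusted p = 0.0192 and 0.0105). The ABA libraries at this stage had 5.33, 17.9 and 13.6 FPKM, replicate 1 lying next to the controls, and the difference of 0.70 from the control was not called (limma adjusted p = 0.192). Late in ripening, at E-L 38, the level was low throughout, at 2.30 ± 0.346 FPKM with ABA, 3.02 ± 1.18 FPKM with NAA and 1.21 ± 0.180 FPKM in the control (SD, n = 3 each). Both hormone groups lay above the control without overlap there, which also held for 21.5% of all tested genes with ABA and 13% with NAA, and neither difference was called.

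The other gene with that ortholog, VIT_206s0004g05460, was the most abundant of the 9, at 31.6 to 162 FPKM. At E-L 35 it was at 88.0, 142 and 130 FPKM in ABA-treated berries, 59.5, 54.9 and 134 FPKM in NAA-treated berries and 57.2, 53.7 and 40.1 FPKM in control berries. ABA libraries were all above the control, and the rise of 1.22 on the log2 scale was called (SE 0.24, limma adjusted p = 0.00106). A fit of these 6 libraries alone did not call it (limma adjusted p = 0.0264), nor did the fit without the 7 libraries with much seed RNA (0.94, limma adjusted p = 0.0089).

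At E-L 34, VIT_206s0004g05460 had 75.4, 162 and 108 FPKM with ABA, 45.8, 41.6 and 37.7 FPKM with NAA and 87.5, 64.9 and 86.7 FPKM in the control. The NAA libraries were below all others. Against the control the change with NAA was −0.91 (limma adjusted p = 0.00545) and too small for a call, and against ABA-treated berries it was −1.38 and called (SE 0.24, limma adjusted p = 3.92e-05). The order was different at E-L 38, where NAA-treated berries had 59.7, 65.3 and 67.1 FPKM, ABA-treated berries 41.6, 42.8 and 47.2 FPKM and control berries 31.6, 36.9 and 36.3 FPKM, with no overlap between groups and no call (NAA against control 0.86, limma adjusted p = 0.0105).

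Of the 10553 tested genes whose mean over all libraries reached 5 FPKM, VIT_206s0004g05460 was the closest in pattern to VIT_216s0050g02680 and the reverse, with a Pearson r of 0.95 over the 12 group means of log2(FPKM + 1). The pair also shared the libraries that stood apart. In NAA replicate 3 at E-L 35 both were at ABA-like levels, and in ABA replicate 1 at E-L 34 both were at or near the levels of the control. The sum of seed transcripts was 1618 FPKM in the first of these libraries and 305 FPKM in the second. NAA replicate 2 at E-L 35, with a seed sum of 796 FPKM, had the lowest level of both PP2C genes among the NAA libraries of that stage. ABA replicate 2 at E-L 35, with the highest seed sum of all libraries (2086 FPKM), had the highest VIT_206s0004g05460 among the ABA libraries of that stage (142 FPKM). The part of seed RNA in the values of these genes was not tested.

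**Figure D3:**
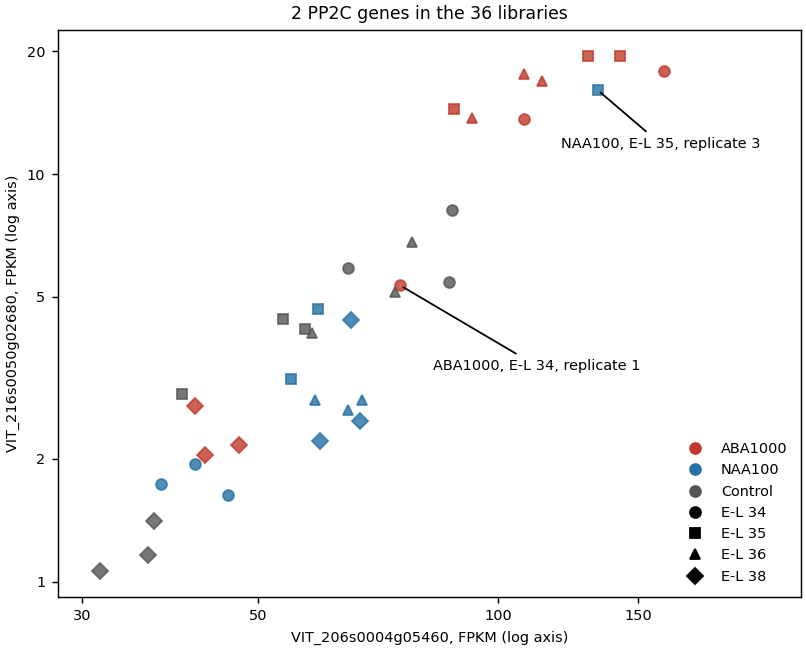
FPKM of the PP2C genes VIT_206s0004g05460 (x axis) and VIT_216s0050g02680 (y axis) in the 36 libraries, both on log axes, with color for treatment and symbol for stage. NAA replicate 3 at E-L 35 lies among the ABA libraries (134 and 16.1 FPKM), and ABA replicate 1 at E-L 34 lies beside the controls (75.4 and 5.33 FPKM).

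VIT_206s0004g06840, a PP2C gene without the ortholog of the pathway, followed a course of its own. In control berries it was at 16.1, 17.4 and 14.4 FPKM at E-L 34, 29.8, 25.2 and 35.9 FPKM at E-L 35, 13.2, 9.76 and 13.0 FPKM at E-L 36 and 30.3, 30.5 and 37.1 FPKM at E-L 38. Levels were thus high at E-L 35 and 38 and low at E-L 34 and 36, with no overlap between successive stages. In ABA-treated berries it was at 33.3, 33.5 and 26.4 FPKM at E-L 34, 13.5, 14.6 and 12.7 FPKM at E-L 35, 24.5, 26.8 and 25.6 FPKM at E-L 36 and 42.5, 49.5 and 39.1 FPKM at E-L 38. ABA-treated berries thus had their lowest level at E-L 35, a stage at which the control was high.

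The change with ABA in VIT_206s0004g06840 was −1.09 at E-L 35 (SE 0.21, limma adjusted p = 0.00104) and 1.05 at E-L 36 (SE 0.21, limma adjusted p = 0.00238), both called, and at E-L 34 it was 0.91 and too small to be called (limma adjusted p = 0.00963). The ABA and control libraries of this gene did not overlap at E-L 34, 35, 36 or 38, which held for 27%, 35.5%, 37.6% and 32.3% of all tested genes. The ABA effect differed between successive stages, by −2.001 for E-L 35 minus E-L 34 (SE 0.30, limma adjusted p = 6.04e-04) and by 2.13 for E-L 36 minus E-L 35 (SE 0.30, limma adjusted p = 1.4e-04), and these were the only ABA effects among the 9 genes called to change between stages. The size of either single-stage call was close to the limit. At E-L 35 it was −0.96 without control replicate 3 and −0.99 with median-of-ratios scaling, and the call was also lost in a fit of these 6 libraries (limma adjusted p = 0.0138) and without the 7 libraries with much seed RNA (−1.01, limma adjusted p = 0.0142). At E-L 36 it was 0.92 without control replicate 2 (limma adjusted p = 0.0155) or without the 7 libraries (limma adjusted p = 0.0212), while with ABA replicate 2 or 3 left out the adjusted p was 0.0125 or 0.0109.

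NAA-treated berries had 21.7, 23.5 and 35.8 FPKM of VIT_206s0004g06840 at E-L 36, which was also above the control (log2 fold change 1.08, SE 0.21, limma adjusted p = 6.94e-05). This call was lost without NAA replicate 3 (log2 fold change 0.87), without control replicate 2 or the 7 libraries with much seed RNA (both 0.95) and with median-of-ratios scaling (0.97) or quantile normalization (0.99). At E-L 34 NAA replicate 1 was at 37.7 FPKM, whereas replicates 2 and 3 were at 16.5 and 16.4 FPKM, within the range of the control.

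VIT_213s0067g01270, the second PP2C gene without the ortholog, was the least abundant PP2C of the 9, at 1.001 to 8.88 FPKM. At E-L 36 it was at 4.41, 8.88 and 5.07 FPKM with ABA, at 1.03, 1.499 and 1.404 FPKM with NAA and at 5.61, 3.88 and 3.87 FPKM in the control. NAA libraries lay below all others. The fall was called against the control (log2 fold change −1.23, SE 0.25, limma adjusted p = 1.09e-04) and against ABA-treated berries (−1.58, SE 0.25, limma adjusted p = 3.1e-06), the ratio of NAA to control means being 0.295. No other treatment difference of this gene was called, and its values rested on 56 to 514 reads per library.

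Among the SnRK2 genes, both genes of chromosome 7 fell with NAA at E-L 36. VIT_207s0031g03210 (SRK2A-like) was at 21.4, 24.4 and 24.2 FPKM in ABA-treated, 9.71, 6.89 and 7.07 FPKM in NAA-treated and 25.1, 24.9 and 26.1 FPKM in control berries at E-L 36. VIT_207s0197g00080 (SRK2I-like) was at 3.83, 3.86 and 3.61 FPKM with ABA, at 1.14, 0.767 and 1.30 FPKM with NAA and at 4.29, 6.89 and 4.06 FPKM in the control. NAA libraries were lowest for both genes, as they were below the control for 32.7% of all tested genes at this stage.

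The log2 fold change of NAA against control was −1.58 for VIT_207s0031g03210 (SE 0.13, limma adjusted p = 2.14e-11) and −1.53 for VIT_207s0197g00080 (SE 0.17, limma adjusted p = 1.16e-08), with ratios of means of 0.311 and 0.21. Against ABA-treated berries the values were −1.47 (limma adjusted p = 6.17e-11) and −1.21 (limma adjusted p = 5.34e-07). All of these calls were kept under every alternative and with each library left out. The levels reached by NAA-treated berries at E-L 36 were close to those of E-L 38, when VIT_207s0031g03210 was at 11.4 ± 0.981 FPKM with ABA, 7.85 ± 0.441 FPKM with NAA and 9.93 ± 2.76 FPKM in the control, and VIT_207s0197g00080 at 1.93 ± 0.186, 1.36 ± 0.155 and 1.47 ± 0.141 FPKM in the same order of groups (SD, n = 3 each).

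Before coloring, VIT_207s0197g00080 moved the other way. At E-L 34 NAA-treated berries had 16.3, 17.7 and 24.9 FPKM, against 11.1, 7.94 and 7.11 FPKM in ABA-treated and 7.80, 10.7 and 9.01 FPKM in control berries. The NAA libraries were all above the others. The rise was called against the control (log2 fold change 1.01, SE 0.17, limma adjusted p = 7.63e-05) and against ABA (1.09, SE 0.17, limma adjusted p = 1.18e-05). Both lay close to the limit in size and were lost without NAA replicate 3 (0.83 and 0.91) and with median-of-ratios scaling (0.91 and 0.89) or quantile normalization (0.98 and 0.97). The call against the control was also lost without control replicate 1 (0.91) and in a fit of these 6 libraries (limma adjusted p = 0.0151), and that against ABA without ABA replicate 3 (0.97), one of the libraries with much seed RNA. No call was made for this gene with ABA at any stage, where the largest difference was −0.53 at E-L 35 (limma adjusted p = 0.0286).

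The remaining kinase gene, VIT_202s0236g00130 (SAPK3-like), differed at E-L 34. It was at 28.7, 26.1 and 24.002 FPKM with ABA, at 12.2, 10.7 and 10.6 FPKM with NAA and at 23.6, 18.9 and 22.2 FPKM in the control. The 3 treatments did not overlap, in the same order as for the receptor gene. The change with NAA was −0.89 against the control (SE 0.13, limma adjusted p = 5.6e-06), too small for a call, and −1.16 against ABA (SE 0.13, limma adjusted p = 3.76e-08), which was called. At E-L 36 its NAA libraries were instead above the control, at 14.4, 16.3 and 18.5 FPKM against 10.9, 12.7 and 11.5 FPKM (log2 fold change 0.45, limma adjusted p = 0.00264), so that the 3 kinase genes did not share a direction at that stage.

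The ABF gene VIT_204s0069g01150 was at 7.79, 9.02 and 7.70 FPKM in ABA-treated, 2.47, 2.29 and 3.497 FPKM in NAA-treated and 6.81, 5.38 and 6.71 FPKM in control berries at E-L 38. The 3 treatments were separate, with NAA lowest. NAA against ABA was called (log2 fold change −1.30, SE 0.16, limma adjusted p = 1.61e-06), and NAA against control, at −0.97, fell just short of the limit in size (SE 0.16, limma adjusted p = 7.49e-05). It passed with 0.1 as the pseudocount (−1.18), with TPM (−1.15) and without control replicate 2 (−1.06) or NAA replicate 3 (−1.11). All NAA libraries were below all control libraries at E-L 35 and 36 as well, with log2 fold changes of −0.51 and −0.41 (limma adjusted p = 0.0206 and 0.0272). With ABA the differences from the control lay between −0.19 and 0.39 on the log2 scale, and none was called.

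Other uncalled differences with an unadjusted p under 0.05 went in both directions. They included, against the control, 0.77 for the receptor gene VIT_202s0012g01270 and 0.33 for the ABF gene VIT_204s0069g01150 with ABA at E-L 36 and at E-L 38 (limma adjusted p = 0.0752 and 0.193), and 0.60 for VIT_206s0004g05460 and 0.83 for VIT_216s0050g02680 with NAA at E-L 35 and E-L 38 (limma adjusted p = 0.0708 and 0.0809). They also included 0.58 for VIT_206s0004g05460 with ABA at E-L 36 (limma adjusted p = 0.117), and with NAA −0.33 for VIT_207s0031g03210 at E-L 34 (limma adjusted p = 0.0527), −0.63 for VIT_206s0004g06840 at E-L 35 (limma adjusted p = 0.0338) and −0.40 for VIT_202s0236g00130 at E-L 38 (limma adjusted p = 0.0223). Between NAA-treated and ABA-treated berries at E-L 38, VIT_206s0004g06840 and VIT_207s0031g03210 differed by −0.88 and −0.48 (limma adjusted p = 0.00299 and 0.00598), with all NAA libraries below all ABA libraries.

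In control berries, 4 of the 9 genes were called lower at E-L 38 than at E-L 34, and none was called higher. All libraries of E-L 38 were below those of E-L 34 for 6 of the 9, against 40.5% of all tested genes. VIT_206s0004g06840 was higher by 0.985, just under the limit. It was called with 0.1 as the pseudocount (1.02), median-of-ratios scaling (1.05) and quantile normalization (1.06), and without replicate 2 of E-L 34 or replicate 1 or 2 of E-L 38. The 4 stage comparisons gave 10 calls among 36 combinations (27.8%, against 13% over all tested genes), 9 of them falls, in 5 genes. Over all tested genes they gave 3645 rises and 5518 falls. None was called between E-L 34 and 35, where 2.7% of all tested genes were called. There, 5 of the 9 had an unadjusted p under 0.05, with no share over all tested genes to set beside it. Between E-L 35 and 36, 2 genes fell (4.66% of all tested genes were called), between E-L 36 and 38, 3 fell and 1 rose (17.2%), and between E-L 34 and 38, 4 fell (27.5%). Libraries of the later and the earlier stage did not overlap for 6, 8, 6 and 7 of the 9 genes in the same order of comparisons, against 39.1%, 50.9%, 70.7% and 74.8% of all tested genes. With median-of-ratios scaling or quantile normalization there were 3 rises and 9 falls. Over all tested genes there were 3391 rises and 5349 falls with the first, and 3945 rises and 4826 falls with the second.

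Control levels of VIT_207s0197g00080 were 9.17 ± 1.47, 12.3 ± 2.98, 5.08 ± 1.57 and 1.47 ± 0.141 FPKM at E-L 34, 35, 36 and 38 (SD, n = 3 each). The change for E-L 38 against E-L 34 was −2.04 (SE 0.17, limma adjusted p = 3.62e-11), the largest of the 9 genes. Its change at E-L 36 against E-L 35, −1.13, was called (limma adjusted p = 1.15e-05), and it was not called without replicate 1 of E-L 35 (−0.96), under quantile normalization (−0.92), under median-of-ratios scaling (−0.96) or in a fit of these 6 libraries (limma adjusted p = 0.0111). VIT_207s0031g03210 was at 32.8 ± 1.95, 31.9 ± 0.0596, 25.4 ± 0.663 and 9.93 ± 2.76 FPKM, so that most of its fall came after E-L 36 (−1.31 for E-L 38 against E-L 36, limma adjusted p = 1.08e-09). The PP2C genes VIT_216s0050g02680 and VIT_206s0004g05460 fell between E-L 34 and 38 by 1.75 and 1.16 on the log2 scale (limma adjusted p = 5.13e-05 and 1.18e-04). VIT_206s0004g06840 was the only one with a called rise, of 1.38 for E-L 38 against E-L 36 (SE 0.21, limma adjusted p = 2.74e-06). The receptor gene, VIT_213s0067g01270, VIT_202s0236g00130 and the ABF gene had no called stage change in the control, although the kinase and the ABF gene were 0.67 and 0.85 lower on the log2 scale at E-L 36 than at E-L 35 (limma adjusted p = 1.36e-04 and 1.44e-04). VIT_213s0067g01270 was at 1.78 ± 0.134 FPKM at E-L 35 and 4.45 ± 1.0005 FPKM at E-L 36 (SD, n = 3 each). This rise was called with 0.1 as the pseudocount (1.25, limma adjusted p = 0.00415), median-of-ratios scaling (1.12) and quantile normalization (1.22). It was also called without control replicate 2 or 3 of E-L 36 (both 1.03).

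Ranked by group mean, 4 genes were highest in an ABA group of E-L 34 or 35. These were the receptor gene (35.9 ± 7.66 FPKM), VIT_216s0050g02680 (17.8 ± 2.92 FPKM) and VIT_206s0004g05460 (120.1 ± 28.4 FPKM) in ABA-treated berries at E-L 35, and VIT_202s0236g00130 (26.3 ± 2.34 FPKM) in ABA-treated berries at E-L 34. The highest group over the lowest ranged between 2.36-fold for VIT_202s0236g00130 and 18.4-fold for VIT_207s0197g00080. Neighbours in the order of the 12 groups mostly overlapped in their libraries, with 1 to 5 of the 11 steps separate for each gene. For the receptor gene the lowest group, NAA at E-L 34 (5.11 ± 1.17 FPKM), was separate from the next, ABA at E-L 38, and for VIT_207s0197g00080 the highest, NAA at E-L 34 (19.6 ± 4.61 FPKM), was separate from the next, the control at E-L 35.

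Whether the response depended on the stage was tested as a change of the treatment effect between successive stages. Of 54 such combinations 13 were called (24.1%, against 7.98% over all tested genes), 2 for ABA and 11 for NAA. The NAA effect on VIT_207s0197g00080 changed at each step, by −1.25 (E-L 35 minus E-L 34), −1.30 (E-L 36 minus E-L 35) and 1.47 (E-L 38 minus E-L 36), and that on VIT_207s0031g03210 by −1.57 and 1.31 at the last 2 steps. For the PP2C genes VIT_216s0050g02680 and VIT_206s0004g05460, the NAA effect was 2.05 and 1.51 higher at E-L 35 than at E-L 34 (limma adjusted p = 0.00436 and 0.00328). The first of these was 1.44 and not called without NAA replicate 3 at E-L 35 (limma adjusted p = 0.0113), and neither was called without control replicate 1 (limma adjusted p = 0.0151 and 0.0104) or NAA replicate 3 (limma adjusted p = 0.012 and 0.0119) of E-L 34. Control replicate 3 of E-L 35 for VIT_216s0050g02680 and of E-L 34 for VIT_206s0004g05460 also decided the call (limma adjusted p = 0.0101 and 0.0115 without them). When the 7 libraries with much seed RNA were left out, 7 combinations were called in place of 13. The share over all tested genes in that fit is not given here.

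Over the 12 group means, the 9 genes formed sets of like pattern. VIT_207s0031g03210 and VIT_207s0197g00080 had a Pearson r of 0.91, and the ABF gene had 0.82 with both. The receptor gene had 0.81 with VIT_216s0050g02680 and 0.77 with VIT_206s0004g05460. VIT_206s0004g06840 stood apart, with r between −0.47 and 0.05 to the other 8 genes. These correlations describe 12 points that share libraries and developmental stages.

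Outside the 9 genes, the pattern most like that of VIT_207s0197g00080 was that of VIT_210s0003g04100, annotated as auxin response factor 6 (r = 0.993), followed by VIT_204s0044g01700, annotated as the RNA polymerase I initiation factor RRN3 (r = 0.991). Closest to VIT_207s0031g03210 were VIT_213s0084g00830, of unknown product, and VIT_214s0006g03040, annotated as the ubiquitin receptor RAD23c (both r = 0.993). The receptor gene was closest to VIT_202s0025g00500, annotated as LURP-one-related (r = 0.959), and to VIT_210s0071g00840 (r = 0.945). VIT_202s0236g00130 was closest to VIT_207s0151g00850, annotated as a transcription repressor of the OFP family (r = 0.959), and to VIT_216s0098g01880, annotated as a dipeptidyl peptidase (r = 0.957). For the ABF gene these were VIT_214s0060g01280, a vacuolar proton pump (r = 0.968), and VIT_215s0045g01370, a RING-H2 finger protein (r = 0.942). After each other, the PP2C genes VIT_216s0050g02680 and VIT_206s0004g05460 were closest to VIT_200s0187g00110, a cysteine proteinase inhibitor (r = 0.932), and to VIT_218s0001g01030, a nucleoredoxin (r = 0.908). The remaining PP2C genes had weaker matches. VIT_206s0004g06840 reached 0.846 with VIT_200s0487g00010, annotated as a disease resistance protein, and 0.834 with VIT_207s0104g00090, a basic helix-loop-helix protein, and VIT_213s0067g01270 reached 0.874 with VIT_206s0004g03100, annotated as MLO-like, and 0.873 with VIT_204s0008g02860.

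The table annotates 38 genes with the KEGG orthologs of PYR/PYL (11 genes), PP2C (12), SnRK2 (5) and ABF (10), of which 28 were tested and 7 are among the genes described above. The 7 were not the dominant genes of their families. VIT_202s0012g01270 held 20.5% of the summed FPKM of the receptor family, after a PYL9-like gene with 50.3% and a PYL8-like gene with 25.3%. VIT_206s0004g05460 held 25.5% of the PP2C family, after VIT_213s0019g02200 with 43.7%. The 3 kinase genes took ranks 3 to 5 of the 5 SnRK2 genes by mean level, and VIT_204s0069g01150 took rank 5 of the 10 ABF genes, with 7.44% of their sum.

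**Figure D4:**
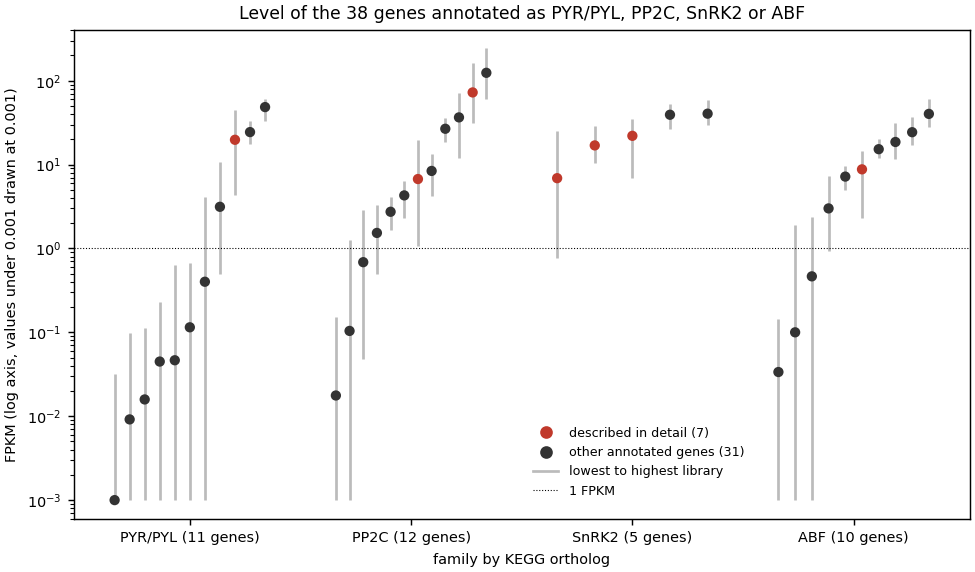
Mean FPKM over 36 libraries (points, log axis) and the range from the lowest to the highest library (gray lines) of the 38 annotated genes, by family (x axis), sorted within a family. The 7 genes described here are in red, and 10 genes of the PYR/PYL, PP2C and ABF families did not pass the filter on low values.

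The study also named some of the 21 other tested genes of the 4 families. Among these are the PP2C gene VIT_202s0025g01390 and the ABF gene VIT_208s0007g03420, with means of 0.687 and 0.465 FPKM over all libraries. The study reported both as raised by ABA, and neither was called here against the control. At levels this low the pseudocount of 1 FPKM makes a log2 change of 1 hard to reach, and the study used a count test. The missing calls therefore do not bear on its result. The 21 genes are thus not an unselected contrast. With ABA, 0 of their 84 combinations of gene and stage were called by limma, against 0.864% over all tested genes, a share that 0 of 84 cannot be told from. An unadjusted p under 0.05 was found in 23, with no share over all tested genes to set beside it. With NAA, 2 of 84 were called (2.38%), against 7.38% over all tested genes. Among the 7 genes, which were picked for their expression in these berries, the counts were 3 and 5 of 28. Both of the 2 were rises of PP2C genes at E-L 36. VIT_204s0008g01420, annotated as PP2C 16, the name of the Arabidopsis phosphatase HAB1, was at 13.4, 12.9 and 13.1 FPKM in NAA-treated and 4.24, 4.68 and 4.67 FPKM in control berries (log2 fold change 1.36, SE 0.09, limma adjusted p = 1.54e-13). VIT_211s0016g03180 was at 34.5, 34.9 and 41.6 FPKM in NAA-treated and 13.5, 19.1 and 20.6 FPKM in control berries (log2 fold change 1.04, SE 0.17, limma adjusted p = 6.11e-06). At this stage NAA thus raised these PP2C genes and also VIT_206s0004g06840, and it lowered VIT_213s0067g01270, of which the last 2 lack the ortholog. VIT_216s0050g02680 and VIT_206s0004g05460 were not called with NAA there.

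Summed over each family, the level of the PP2C genes was 445 ± 62.2 FPKM with ABA, 328 ± 116 FPKM with NAA and 245 ± 27.1 FPKM in the control at E-L 35, where the NAA libraries were at 265, 258 and 462 FPKM, and 170 ± 9.05, 232 ± 10.2 and 167 ± 8.45 FPKM at E-L 38 in the same order of groups (SD, n = 3 each). Receptor sums varied less between groups, from 82.8 FPKM in the control at E-L 38 to 118 FPKM with ABA at E-L 34.

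A wider list held 179 genes that the table annotates with the Gene Ontology term for signalling activated by ABA, of which 135 were tested. With ABA, 0 to 2 of them rose (at most 1.48%) and 0 or 1 fell (at most 0.741%) at each stage. Of all tested genes, 0.136% to 0.847% were called higher and 0.176% to 0.608% lower, shares that such small counts cannot be told from. With NAA at E-L 36, 9 rose (6.67%) and 30 fell (22.2%), against 9.05% and 10.8% of all tested genes, and at E-L 38 none rose and 6 fell (4.44%), against 0.398% and 3.02%.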

How the data were processed

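RNA of deseeded Cabernet Sauvignon berries was sequenced from 36 libraries, 3 for each of 12 groups of treatment and stage. The authors deposited FPKM values per gene. Per the study's methods reads were aligned to the CRIBI grape genome with TopHat, and the submitters' processing notes name Bowtie, while the tool that counted reads and the assembly version are not given in the sources used here. Since FPKM values are not counts, a count test was not used. Columns were matched to groups by name, as their replicate numbers could not be tied to the replicate letters of the labels.

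From these values, log2(FPKM + 1) was fitted with limma 3.58.1 in R 4.3.3 (12 group means, intensity trend, 24 residual degrees of freedom) for 17598 of 25280 genes with at least 1 FPKM in at least 3 libraries. Benjamini-Hochberg adjustment ran over all tested genes of a comparison. The fit was tested on simulated data with known changes. Exact permutation of 3 against 3 libraries cannot go below p = 0.1 and was not used. Relative depth was read from the steps between low FPKM values. Descriptions and figures were made in Python 3.11.15 (pandas 2.3.3, numpy 2.4.6).

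The alternatives were another pseudocount (0.1), TPM, median-of-ratios and quantile scaling, no filter or a mean of at least 5 FPKM, the replicate number as a block, a fit restricted to the 6 libraries compared, and each library left out in turn. Leaving out the 7 libraries with a seed transcript sum over 500 FPKM was added after seeing the data. Members and lists were chosen with earlier results of these data known. Text names all 9 members, the 2 genes most like each in pattern, other annotated pathway genes called against the control, and combinations called or with an unadjusted p under 0.05, of which those in the text turn on a result and the rest are given as counts. Replicates are field plots per the labels.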

Additional observations from a re-analysis of the deposited data

Results flagged for a closer look

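The effect of a treatment differed between successive stages by the interaction contrast of the same limma fit in 13 combinations of gene and step, in 6 of the 9 genes. Values are the later effect minus the earlier one on the log2 scale, with Benjamini-Hochberg adjusted p from limma. The PP2C gene VIT_206s0004g06840 had the most, with −2.001 (adjusted p = 6.04e-04) and 2.13 (adjusted p = 1.4e-04) for ABA at E-L 35 minus 34 and 36 minus 35, and 1.71 (adjusted p = 2.45e-05) and −1.56 (adjusted p = 8.78e-05) for NAA at E-L 36 minus 35 and 38 minus 36.

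For the kinase genes, the NAA effect on VIT_207s0197g00080 changed by −1.25, −1.30 and 1.47 at the 3 successive steps (adjusted p = 0.00112, 5.56e-05 and 1.17e-05), and that on VIT_207s0031g03210 by −1.57 and 1.31 at E-L 36 minus 35 and 38 minus 36 (adjusted p = 3.87e-08 and 7.66e-07). The NAA effect at E-L 35 minus 34 changed by 2.05 for VIT_216s0050g02680 (adjusted p = 0.00436) and by 1.51 for VIT_206s0004g05460 (adjusted p = 0.00328). For VIT_216s0050g02680 it changed by 1.57 at E-L 38 minus 36 (adjusted p = 0.00724, and 0.0125 to 0.0274 when any of control replicates 2 and 3 or NAA replicates 1, 2 and 3 of E-L 36, or control replicates 1 and 3 or NAA replicate 2 of E-L 38, was left out), and for VIT_213s0067g01270 by −1.48 at E-L 36 minus 35 (adjusted p = 8.43e-04).

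Steps that involve E-L 35 use NAA replicate 3 of that stage. With the libraries of much seed RNA left out, 6 of the NAA changes were no longer called, namely 1.52 and 1.01 for VIT_216s0050g02680 and VIT_206s0004g05460 at E-L 35 minus 34 (adjusted p = 0.0196 and 0.0489), 1.35, −1.41 and −0.93 for VIT_206s0004g06840, VIT_213s0067g01270 and VIT_207s0197g00080 at E-L 36 minus 35 (adjusted p = 0.0115, 0.0202 and 0.0132), and 1.18 for VIT_216s0050g02680 at E-L 38 minus 36 (adjusted p = 0.0126). The part of seed RNA in these changes was not tested.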

How the results depend on the processing

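Of 48 called combinations of gene and comparison, 31 kept their call under every alternative and 30 also with each library left out, and no direction was reversed. With ABA, 5 combinations were called, against 3 in a fit restricted to the 6 libraries compared and 2 without the 7 libraries of much seed RNA. Without those libraries, 7 changes of a treatment effect between stages were called, against 13. These fits used fewer libraries, their shares over all tested genes are not given here, and further causes were not tested. With each library left out in turn, the counts ranged from 3 to 6 for ABA, 5 to 8 for NAA, 11 to 14 for NAA against ABA, 9 to 12 for the control stages, 11 to 14 for stage dependence, 2 to 3 for the annotated pathway genes with ABA and 5 to 8 with NAA. Only ABA replicate 2 or 3 at E-L 36 moved a count by over 1.5 times when left out (3 calls with ABA each). The numbers do not pair the libraries. The median correlation of deviations from the group mean was 0.018 over 198 pairs with the same number and −0.007 over 396 pairs with different numbers, and with the replicate block the counts were 5 for ABA, 7 for NAA, 13 for NAA against ABA, 10 for the control stages and 13 for stage dependence, as without it. The median log2 change of all genes lay between −0.16 and 0.17 over the 16 comparisons, and between −0.28 and 0.28 for TPM. With few reads behind VIT_216s0050g02680 (41 at the lowest), counting error alone reached 15.6% of its level.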
